A study of Mus musculus with 6 samples.

Results

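A group of 6 genes, labelled as early lineage genes lower in depolarized cells, was described in neutrophils sorted by membrane potential response. They were Ms4a3, Nkg7, Gatm, Igf1, Alg8 and Prss57. Whether each of them belongs to an early lineage stage was not tested. These 6 are among 41388 genes in the deposited tables. Ms4a3, Nkg7, Gatm, Igf1 and Alg8 were chosen from the measured values, as genes other than granule enzymes and cell cycle genes that had fewer counts in depolarized than in polarized libraries. Prss57 was set beside them as a marker of granulocyte precursors. The difference between depolarized and polarized cells is therefore given below as a description, with no test. The data go against the label of lower expression for Prss57, which had 737 counts over the depolarized and 700 over the polarized libraries. The other 5 were lower in depolarized cells by that choice.

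All cells were bone marrow neutrophils of C57BL/6 mice, loaded with 250 nM DiBAC4(3), a dye that enters cells as their membrane depolarizes, and stimulated with 100 nM ionomycin, a calcium ionophore. The depolarized and the polarized population were each collected as 20000 cells, 2 to 4 minutes after stimulation, so all cells had received dye and ionophore and no unstimulated group is used here. There were 3 depolarized and 3 polarized libraries in 3 replicate pairs, which are named A, B and C here. The sources used here do not give age or sex of the mice, or whether marrow was pooled. Library totals ran from 16904969 to 20381489 counts. The neutrophil transcripts S100a8, S100a9 and Retnlg were detected in every library, with at least 570453 counts of each. The depolarized library of pair B carries another run label than the other 5 libraries, and the polarized library of pair C held the most counts of the azurophil granule gene Mpo, with 2855 against 258 and 338 in the other two polarized libraries.

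Neutrophils arise in the marrow from precursors shared with monocytes. At the promyelocyte stage these precursors make the enzymes of the azurophil granules, and they stop making those transcripts as they mature, so that azurophil proteins persist in cells that no longer hold their mRNA. Ms4a3 encodes a protein that crosses the membrane several times and is used as a marker of the shared granulocyte and monocyte precursor. Nkg7 encodes a membrane protein of cytotoxic granules, best known from natural killer and cytotoxic T cells. Prss57 encodes a serine protease of azurophil granules that cuts after arginine. Gatm encodes the mitochondrial amidinotransferase that begins creatine synthesis. Igf1 encodes an insulin-like peptide, a secreted growth factor that macrophages and many other cells make. Alg8 encodes a glucosyltransferase of the endoplasmic reticulum that adds glucose to the lipid-linked precursor of N-glycans. In bulk libraries fewer cells of a type and less RNA per cell cannot be told apart.

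The promoters of the 5 lower genes were compared for shared letters, since these genes went in one direction. RefSeq promoters on GRCm38.p6 were found for Ms4a3, Nkg7, Gatm, Igf1 and Alg8. The 250 bases before the RefSeq start were searched, and that start can differ from the end of the gene as listed for the counts. Only the window of Ms4a3 lies outside the listed gene. Those of Nkg7, Gatm and Alg8 reach into it, and that of Igf1 lies within it. The letters TTGNGNA, a short form of the site of CEBP factors, stood on either strand in 3 of 5 promoters. They stood in 34.6% of 32851 promoters of the same length. The 3 that held them are shown because CEBP factors are known for driving granulocyte genes. Capitals mark the matches. The windows are chr19:11640852-11641101 on the minus strand for Ms4a3, chr2:122611278-122611527 on the minus strand for Gatm and chr7:97371367-97371616 on the plus strand for Alg8, each printed 5′ to 3′ towards the gene.
Ms4a3: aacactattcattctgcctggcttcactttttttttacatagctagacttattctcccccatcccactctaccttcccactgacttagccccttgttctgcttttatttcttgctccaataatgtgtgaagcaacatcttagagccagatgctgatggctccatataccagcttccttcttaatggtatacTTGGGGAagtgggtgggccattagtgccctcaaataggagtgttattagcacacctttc
Gatm: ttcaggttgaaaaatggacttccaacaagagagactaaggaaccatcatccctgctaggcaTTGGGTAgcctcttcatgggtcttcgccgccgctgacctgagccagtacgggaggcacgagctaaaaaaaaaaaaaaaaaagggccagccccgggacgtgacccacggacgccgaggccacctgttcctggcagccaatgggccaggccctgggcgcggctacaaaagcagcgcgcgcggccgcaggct
Alg8: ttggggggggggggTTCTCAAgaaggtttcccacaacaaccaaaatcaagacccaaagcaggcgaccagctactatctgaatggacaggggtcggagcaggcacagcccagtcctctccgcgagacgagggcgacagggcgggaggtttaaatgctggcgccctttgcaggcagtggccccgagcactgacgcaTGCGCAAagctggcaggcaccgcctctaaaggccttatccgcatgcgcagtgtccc
The match in Ms4a3 began 59 bases before the start and that in Gatm 189 bases before it. Alg8 held 2 matches on the opposite strand, 236 and 56 bases before the start, so its capitals are the reverse complement of the letters searched. The PU.1 letters GAGGAA stood in 1 of 5 promoters, that of Igf1, and in 23.3% of all. The RUNX letters TGTGGT also stood in 1 of 5, that of Nkg7, and in 14.0% of all, while the MYB letters AACNG stood in 2 of 5 and in 74.2% of all. The TATA letters TATAAA stood in 0 of 5 and in 12.4% of all. Each motif was searched on both strands, and the CEBP letters overlapped no match of another motif in the promoters shown. GC content was 43.6% for Ms4a3, 59.2% for Gatm and 61.2% for Alg8, with a median of 52.4% over all promoters. A match of letters describes the sequence and is not a measured binding site.

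Ms4a3 (ENSMUSG00000024681, chromosome 19, 11629496 to 11640851, minus strand, GRCm38) was close to absent from depolarized cells. It had 6, 1 and 12 counts in the A, B and C depolarized libraries, against 63, 173 and 279 in the polarized ones. That is 0.352 ± 0.333 CPM in depolarized and 9.21 ± 5.54 CPM in polarized cells (SD, n = 3 each). All 3 depolarized libraries lay below all 3 polarized ones, and within the polarized group the library of pair A was lowest. On summed counts the gene was 27.3-fold lower in depolarized cells, with an exact binomial 95% interval of 17.3 to 45.8 that covers counting error only. Within pairs the log2 difference was -3.02, -5.98 and -4.35 in A, B and C. The fitted log2 fold change was -4.77 with a standard error of 0.48, and it was -4.07 without pair B.

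Nkg7 (ENSMUSG00000004612, chromosome 7, 43437073 to 43438246, plus strand) had 1, 1 and 12 counts in the A, B and C depolarized libraries, against 42, 45 and 230 in the polarized ones. Its level was 0.270 ± 0.381 CPM in depolarized and 5.51 ± 5.39 CPM in polarized cells (SD, n = 3 each). The groups did not overlap, and pair C was highest in both groups. The polarized library of pair C was 5.40-fold above that of pair A, the widest spread of the 6 genes within the polarized group. The pair differences of Nkg7 were -3.84, -4.08 and -4.08 as log2 CPM with a prior count of 2, a small count added before taking logs. In pairs A and B the depolarized libraries held 1 count each, so that added count shapes their differences. Without it, CPM in depolarized and polarized cells was 0.0491 and 2.17 in A, 0.0521 and 2.64 in B, 0.710 and 11.7 in C. The fitted log2 fold change was -4.65 with a standard error of 0.47, and it was -5.39 without pair C. On summed counts Nkg7 was 22.8-fold lower in depolarized cells (exact binomial 95% interval 13.4 to 42.3).

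Gatm (ENSMUSG00000027199, chromosome 2, 122594467 to 122611303, minus strand) had 0, 9 and 1 counts in the A, B and C depolarized libraries, against 23, 45 and 75 in the polarized ones. The groups did not overlap. Unlike Ms4a3 and Nkg7, whose depolarized counts were highest in pair C, Gatm had 9 of its 10 depolarized counts in pair B. Its level was 0.176 ± 0.255 CPM in depolarized and 2.55 ± 1.32 CPM in polarized cells (SD, n = 3 each), a 14.4-fold lower value on summed counts (exact binomial 95% interval 7.62 to 30.7). The fitted log2 fold change was -4.06 with a standard error of 0.69. It moved to -6.34 without pair B and to -3.30 without pair C, so its size depends on the pairs used.

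Igf1 (ENSMUSG00000020053, chromosome 10, 87858265 to 87937042, plus strand) lay nearest to the choice of lower genes, with the smallest difference of the 5. It had 11, 17 and 10 counts in the A, B and C depolarized libraries, against 40, 55 and 60 in the polarized ones. Its level was 0.672 ± 0.187 CPM in depolarized and 2.79 ± 0.626 CPM in polarized cells (SD, n = 3 each). The groups did not overlap, and the libraries within a group were closer to each other than for any other of the 6 genes, with the highest polarized library 1.56-fold above the lowest. On summed counts Igf1 was 4.12-fold lower in depolarized cells (exact binomial 95% interval 2.87 to 6.03). The pair differences were -1.70, -1.78 and -2.40 as log2 values. The fitted log2 fold change was -2.11 with a standard error of 0.43.

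Alg8 (ENSMUSG00000035704, chromosome 7, 97371606 to 97392153, plus strand) was the least abundant of the 6 by counts. It had 0, 1 and 1 counts in the A, B and C depolarized libraries, against 19, 11 and 32 in the polarized ones. The groups did not overlap. With 2 counts over the depolarized and 62 over the polarized libraries, the gene was 31.3-fold lower in depolarized cells with a wide exact binomial 95% interval of 8.30 to 264. Its level was 0.0371 ± 0.0323 CPM in depolarized and 1.09 ± 0.501 CPM in polarized cells (SD, n = 3 each), and the depolarized mean lay under the 0.0531 CPM that 3 counts over that group correspond to. The fitted log2 fold change of -4.74 (standard error 0.85) depends on the small count that the fit adds, and it was -5.41 without pair B.

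Prss57 (ENSMUSG00000020323, chromosome 10, 79781474 to 79790961, minus strand) did not share this pattern. It had 153, 332 and 252 counts in the A, B and C depolarized libraries, against 121, 252 and 327 in the polarized ones. Its level was 13.2 ± 5.11 CPM in depolarized and 12.6 ± 5.55 CPM in polarized cells (SD, n = 3 each). The groups overlapped throughout, and pair A was lowest in both. The log2 difference was 0.32 in pair A, 0.19 in pair B and -0.39 in pair C, and the fitted log2 fold change was 0.03 with a standard error of 0.23. On summed counts the ratio of depolarized to polarized cells was 1.04 (exact binomial 95% interval 0.940 to 1.16). Of the exon length of Prss57, 40.7% is overlapped on the opposite strand by Fstl3, a gene of a secreted follistatin-like protein that held 104 counts in all libraries against 1437 for Prss57. The sources used here do not give the strand setting of the counting, so reads of the 2 genes in that stretch cannot be told apart.

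**Figure D1:**
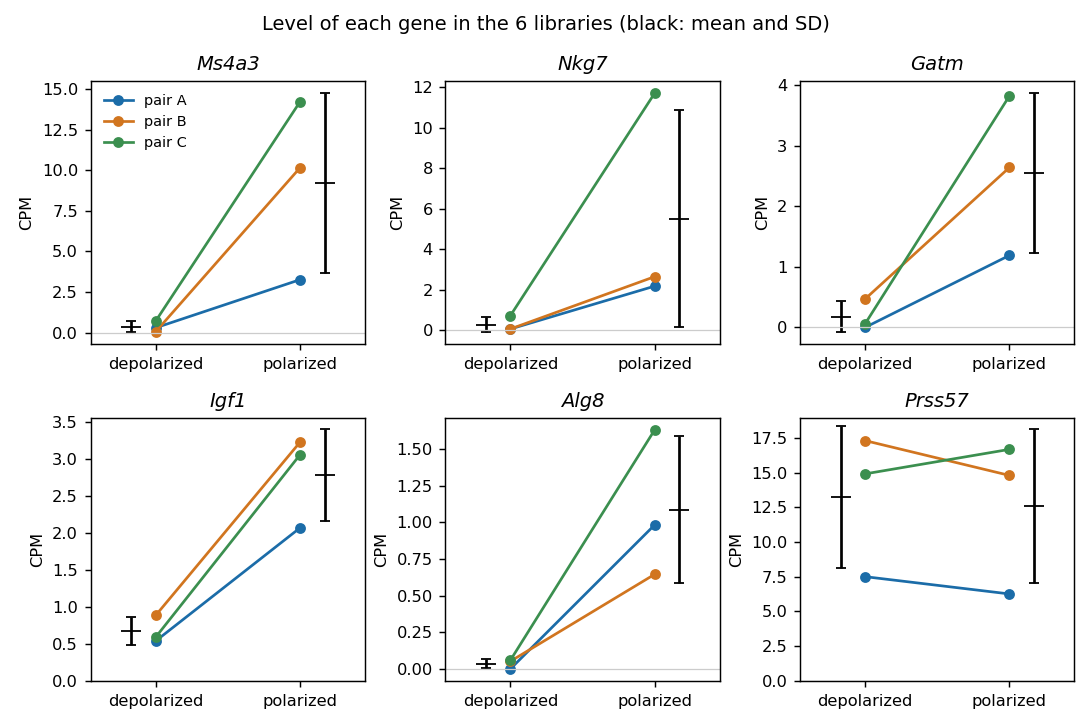
CPM (vertical axis, each panel from its own 0) of the 6 genes in depolarized and polarized libraries, with lines joining the libraries of a pair and black bars for the mean and SD of 3 libraries. Every depolarized library of Ms4a3, Nkg7, Gatm, Igf1 and Alg8 sits below every polarized one, while for Prss57 the groups overlap at 13.2 and 12.6 CPM.

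Of the 6 genes, 5 had all depolarized libraries below all polarized ones, a pattern that 4.54% of 9971 tested genes showed, while 4.59% showed the opposite one and 0 of the 6 did. Of all tested genes 0.241% were called lower and 0.0802% higher in depolarized cells by edgeR's quasi-likelihood test at a Benjamini-Hochberg adjusted p under 0.05, and 656 of the 9971 had an unadjusted p under 0.05. Nothing is read from these shares, since the 5 genes were chosen on the same difference. All 6 passed the filter on low counts, which asks for about 0.519 CPM in at least 3 libraries. Ms4a3, Nkg7, Gatm and Alg8 reached that level in all 3 polarized libraries but in at most 1 depolarized library, so they passed through the group in which they were high. Igf1 and Prss57 reached it in all 6 libraries.

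Levels were compared between genes per kilobase, as RPKM. In polarized cells Nkg7 was at 6.28 ± 6.13 RPKM, Ms4a3 at 4.89 ± 2.94 RPKM and Prss57 at 4.42 ± 1.95 RPKM (SD, n = 3 each). The libraries of these 3 overlapped. Gatm followed at 0.850 ± 0.440 RPKM, below all polarized libraries of the first 3, then Alg8 at 0.389 ± 0.179 RPKM and Igf1 at 0.281 ± 0.0632 RPKM. The values of Gatm overlapped with those of Alg8 across libraries, but Gatm ranked above Alg8 within each polarized library. Alg8 and Igf1 overlapped too, and their order changed between libraries. The listed exon length of Igf1, 9904 bases, is the longest of the 6. In depolarized cells Prss57 stood alone at 4.66 ± 1.80 RPKM, above the other 5 genes in each library. The order of those 5 changed between libraries, with Ms4a3 the highest of them in pair A, Gatm in pair B and Nkg7, at 0.808 RPKM, in pair C. Among the 9971 tested genes, the share with a lower mean RPKM than Ms4a3 was 6.19% in depolarized and 63.3% in polarized cells. For Nkg7 that share was 11.1% in depolarized and 67.9% in polarized cells. For Prss57 it was 61.7% in depolarized and 61.2% in polarized cells.

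The residual counts in depolarized cells were not in the same library for every gene. Ms4a3 and Nkg7 had the most counts in the depolarized library of pair C, Gatm and Igf1 had them in that of pair B, and Alg8 had 1 count in each of these. In polarized cells all 5 lower genes had the most counts in pair C, although in CPM Igf1 was slightly higher in pair B, at 3.23 against 3.06 in pair C. Mpo showed the pair C pattern in both groups, with 6, 4 and 99 counts in depolarized and 258, 338 and 2855 in polarized cells of pairs A, B and C. Cathepsin G (Ctsg), a protease of the same granules, had 3, 1 and 1 counts in depolarized and 28, 43 and 223 in polarized cells, and its depolarized library of pair C held 1 count.

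For each gene the 3 tested genes with the most similar profile were found, by the root mean square distance of log2 CPM, centred on each gene's mean, over the 6 libraries. These libraries are the ones the choice of genes used, so likeness here includes the difference between the groups. Ms4a3 lay nearest to ficolin B (Fcnb), a pattern recognition lectin of precursors and immature neutrophils, at a distance of 0.58, followed by Nkg7 and the serine protease gene Prtn3, both at 0.72. Nkg7 lay nearest to Prtn3 at 0.46, then to the mitotic regulator gene Birc5 at 0.58. Ms4a3 was the last of the 3 nearest genes of Nkg7, and it was not among them with a prior count of 0.5 in place of 2.

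Gatm lay nearest to genes of cell division: the kinesin gene Kif22 at 0.57, the kinetochore gene Spc25 at 0.63 and Cdca3, a gene of mitotic entry, at 0.79. Alg8 lay nearest to the DNA primase gene Prim1 at 0.32, the mitotic kinase gene Pbk at 0.39 and Cdk1 at 0.45. Igf1 lay nearest to Cdca3 at 0.27, then to the selenoprotein gene Selenoh at 0.29 and to C130026I21Rik at 0.32. Prss57 lay nearest to Dynlt1b, a dynein light chain gene, at 0.15, with Unk at 0.17 and Cdpf1 at 0.20. With the prior count of 0.5, 2 of the 3 nearest genes stayed for each of the 6.

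**Figure D2:**
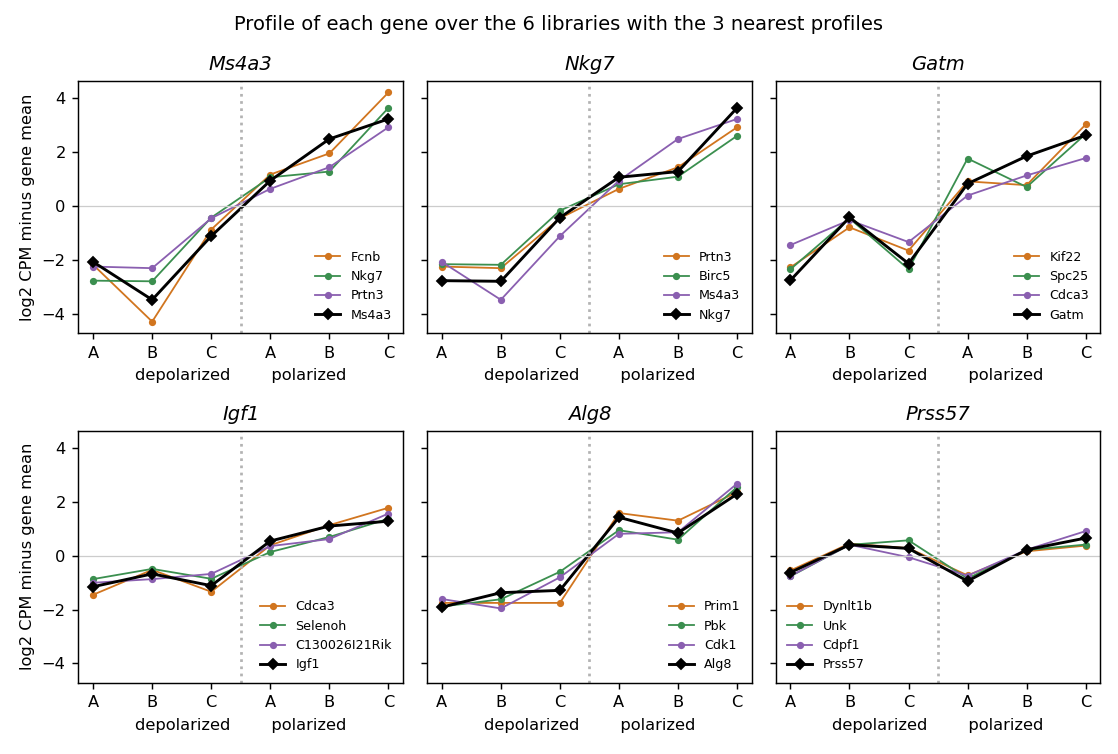
Log2 CPM minus the gene's own mean (vertical axis) in the depolarized and polarized libraries of the 3 pairs, for each of the 6 genes in black and its 3 nearest genes in colour, with lines drawn only to guide the eye. Ms4a3 runs with Fcnb, Nkg7 with Prtn3 and Birc5, Gatm with Kif22, Alg8 with Prim1 and Prss57 with Dynlt1b at a distance of 0.15.

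Other genes of the shared granulocyte and monocyte precursor were tested beside the 6, from a list written with earlier results of these data known. Of 19 tested genes, 5 were called lower in depolarized cells, 0 were called higher and 14 were not called, against 0.321% of all tested genes called in either direction. The 5 were Mpo, Elane, Prtn3, Ctsg and Fcnb, all genes of azurophil granule proteins or of ficolin B. Elane, the gene of neutrophil elastase, had 3, 2 and 86 counts in depolarized and 254, 668 and 2133 in polarized cells. The fitted difference was -5.66 ± 0.41 on the log2 scale (SE, edgeR adjusted p 8.32e-07). Its groups did not overlap. For Mpo, the myeloperoxidase gene, whose counts are given above, the difference was -5.30 ± 0.29 (SE, edgeR adjusted p 1.96e-08).

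Fcnb had 7, 0 and 18 counts in depolarized and 90, 144 and 670 in polarized cells, a difference of -5.17 ± 0.46 on the log2 scale (SE, edgeR adjusted p 1.17e-05). Genes of regulators were not called. Myb, a transcription factor gene of dividing progenitors, had 112, 48 and 44 counts in depolarized and 173, 126 and 121 in polarized cells (log2 fold change -1.22, standard error 0.29, edgeR adjusted p 0.127). Cebpe, which drives the step to specific granules, had 289, 376 and 271 counts in depolarized and 437, 449 and 472 in polarized cells (log2 fold change -0.63, standard error 0.20, edgeR adjusted p 0.354). Irf8, the factor of the monocyte path, had a log2 fold change of -2.19 (standard error 0.60, edgeR adjusted p 0.212) from 15 counts in depolarized and 64 in polarized cells. In Myb, Cebpe and Irf8 the groups did not overlap. Of the 19 tested genes of the list, 9 lay lower and 0 higher without overlap, against 4.54% and 4.59% of all tested genes. Gfi1 was fitted at -1.14, with a standard error of 0.64.

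Cebpa and the stem cell factor receptor gene Kit were fitted at -0.03 and -0.28 and were not called. The progenitor surface genes Cd34 and Flt3 stayed under the filter. Cd34 had 4 counts over the depolarized and 23 over the polarized libraries, and Flt3 had 17 over the depolarized and 8 over the polarized ones. The median log2 fold change of the 19 genes was -0.63, against -0.00218 over all tested genes. Without pair C, 8 of the list were called, with Myb, Cebpe and Irf8 added to the 5, but then 10.1% of all tested genes were called. Without the replicate block edgeR called 0 genes of the list and 0 genes in all, with 511 genes at an unadjusted p under 0.05.

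Prss57 belongs to the family of neutrophil serine proteases, and 3 of its relatives were called lower while Prss57 itself had a log2 fold change of 0.03. Of 8 other tested genes of these proteases and their handling, 3 were called lower in depolarized cells (Elane, Prtn3 and Ctsg) and 5 were not called. Among all tested genes 0.241% were called lower. Elane, Prtn3 and Ctsg also stand in the precursor list, so this count is not separate from the one given there. Prtn3, a protease of azurophil granules, had 8, 8 and 29 counts in depolarized and 72, 117 and 317 in polarized cells (log2 fold change -3.55, standard error 0.34, edgeR adjusted p 2.43e-05). Ctsg differed by -5.54 ± 0.65 on the log2 scale (SE, edgeR adjusted p 0.000229). The difference between these fold changes and that of Prss57 was not tested.

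Serpinb1a, an inhibitor of elastase, had 6305, 5550 and 2487 counts in depolarized and 7585, 7826 and 7834 in polarized cells without overlap (log2 fold change -0.88, standard error 0.23, edgeR adjusted p 0.180). The abundant genes Slpi, a protease inhibitor, and Srgn, the proteoglycan that packs granule proteins, were fitted at 0.09 and 0.21 and were not called. Per length, Elane was at 1.93 RPKM in depolarized and 58.4 RPKM in polarized cells as means of 3 libraries, and Prtn3 at 0.486 RPKM in depolarized and 5.15 RPKM in polarized cells. Without pair C, 6 of the 8 were called, beside 10.1% of all tested genes, and without the replicate block 0. Of the genes called without pair C, Elane, Prtn3, Ctsg and Serpinb1a were lower in depolarized cells. Slpi and Srgn were higher there, at log2 fold changes of 0.28 and 0.33.

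Ms4a3 was the most abundant of the listed Ms4a genes in polarized cells, at 4.89 RPKM, with Ms4a6c next at 0.425 RPKM. Of 17 other family members 3 were tested and 0 were called by edgeR or by DESeq2. An unadjusted edgeR p under 0.05 was found for 2 of the 3, and for 656 of all 9971 tested genes. Ms4a4b, which is known from T cells, had 6, 0 and 2 counts in depolarized and 19, 12 and 39 in polarized cells (log2 fold change -3.19, standard error 0.76, edgeR adjusted p 0.117), and its groups did not overlap. The B cell gene Ms4a1 had 25 counts over the depolarized and 75 over the polarized libraries, and the macrophage gene Ms4a7 had 65 over the depolarized and 58 over the polarized ones. Ms4a6c, a monocyte gene below the filter, had 2 counts over the depolarized and 51 over the polarized libraries, of which 43 were in pair C. Ms4a6d had 17 counts over the depolarized and 19 over the polarized libraries, and Ms4a4c had 8 over the depolarized and 6 over the polarized ones. Ms4a2, the nearest protein-coding gene to Ms4a3 at 5777 bases, had 4 counts in depolarized and 8 in polarized cells. With no filter on low counts 2 members were called, beside 0.664% of all tested genes. Without pair A 1 was called, beside 0.986% of all tested genes. Ms4a1 and Ms4a4b were called without pair C, where 10.1% of all tested genes were called.

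The machinery around Alg8 held no other gene that was called. Of 32 other tested genes of N-glycan precursor assembly and transfer, 0 were called by edgeR or DESeq2. An unadjusted edgeR p under 0.05 was found for 2 of the 32, and for 656 of all 9971 tested genes. Of the 32, 13 were fitted below 0 and the median log2 fold change was 0.05. Alg5, which makes the glucose donor that Alg8 uses, had 177, 181 and 149 counts in depolarized and 176, 134 and 173 in polarized cells, and was fitted at -0.00392 ± 0.24 on the log2 scale (SE). Alg10b, which adds the last glucose after Alg8, was fitted at -0.25 with a standard error of 0.48. Alg6, which acts just before Alg8, had 17 counts over the depolarized and 16 over the polarized libraries and stayed under the filter. Alg13, a subunit of an enzyme at an early step of the same assembly, was also under the filter. It had 7, 1 and 1 counts in depolarized and 9, 12 and 17 in polarized cells, with no overlap, and was 4.26-fold lower on summed counts (exact binomial 95% interval 2.02 to 10.02). Of the 32 tested genes of the list, 0 lay lower without overlap and 5 lay higher without overlap, namely Dpm1, Alg9, Rpn2, Dad1 and Magt1. Among all tested genes 4.54% lay lower and 4.59% higher in this way. The catalytic subunits of the oligosaccharyltransferase, Stt3a and Stt3b, were fitted at 0.20 and -0.19. Among the most abundant genes of the list per length, Ostc, Ost4 and Dpm2 were fitted at 0.09, 0.10 and 0.04. The neighbours of Alg8 on chromosome 7 were not called either: Ndufc2, a respiratory chain gene 7850 bases away, had a log2 fold change of -0.76 with an edgeR adjusted p of 0.556, and Kctd21 was fitted at -0.24. Without pair C, 5 genes of the list were called, of which Magt1, Dad1, Rpn2 and Stt3a were higher and Srd5a3 was lower, in a fit that called 10.1% of all tested genes.

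Igf1 is the ligand of a receptor that was abundant in both groups. The receptor gene Igf1r had 948, 964 and 921 counts in depolarized and 946, 746 and 696 in polarized cells (log2 fold change 0.18, standard error 0.18, edgeR adjusted p 1). Of 7 other tested genes of insulin-like growth factor signalling, 0 were called by edgeR or DESeq2, and the median log2 fold change was 0.18. An unadjusted edgeR p under 0.05 was found for 1 of the 7, and for 656 of all 9971 tested genes. The gene fitted highest was the binding protein gene Igfbp6, with 86, 205 and 139 counts in depolarized and 42, 79 and 75 in polarized cells (log2 fold change 1.02, standard error 0.27, edgeR adjusted p 0.202). It was called without pair C, as were 10.1% of all tested genes. The clearance receptor gene Igf2r was fitted at 0.43, the adaptor gene Irs2 at 0.45 and the signalling factor gene Stat5b at 0.11. The other ligand gene, Igf2, had 0 counts in all 6 libraries.

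For Gatm no partner could be tested. None of 6 other genes of creatine synthesis, transport and kinases passed the filter. Gamt, which completes creatine synthesis, had 8 counts over the depolarized and 5 over the polarized libraries. The creatine transporter gene Slc6a8 had 5 counts over the depolarized and 6 over the polarized libraries, and the brain-type kinase gene Ckb had 13 over the depolarized and 19 over the polarized ones. A difference in these was not detectable at this depth.

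**Figure D3:**
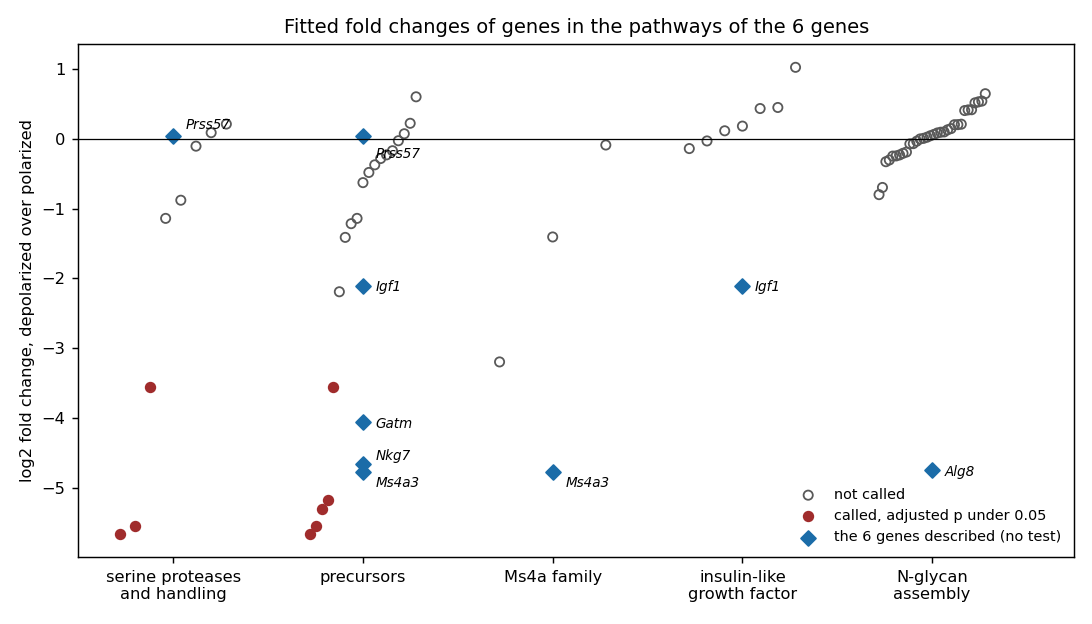
Fitted log2 fold changes, depolarized over polarized (vertical axis), of the tested genes of 5 lists, with the 6 described genes as labelled diamonds, other called genes filled and those not called open. The called genes, all below 0, stand in the protease and precursor lists, and Prss57 lies at 0.03. The low position of Ms4a3, Nkg7, Gatm, Igf1 and Alg8 was fixed by their choice.

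Since Nkg7, Gatm and Igf1 are also known from other cells, markers of those cells were read in the same libraries. The 14 natural killer and cytotoxic T cell markers other than Nkg7 summed to 2.75, 1.77 and 4.91 CPM in the depolarized libraries and to 5.59, 2.76 and 4.54 CPM in the polarized ones, so the groups overlapped. Of these 14, 2 were tested and 0 were called by edgeR or DESeq2, also at an unadjusted p under 0.05. In the polarized library of pair C, where Nkg7 had 230 counts, the T cell genes Cd3g, Cd3e and Trbc2 had 25, 11 and 7 counts, the chemokine gene Ccl5 had 22 and the receptor gene Klrk1 had 9. In that library the granzyme genes Gzma and Gzmb had 5 and 2 counts, Cd8a had 4, Eomes had 2, Klrd1 and Il2rb had 1 each, and Ncr1, Prf1 and Klrb1c had 0 each. The part of these cells in the values of Nkg7 was not tested.

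The 14 macrophage markers other than Gatm and Igf1 summed to 1578, 1788 and 1712 CPM in depolarized and 1219, 1132 and 1253 CPM in polarized cells. That sum was carried by Slc40a1 and Csf1r, which both lay higher in all depolarized libraries. Of 13 tested, 0 were called by edgeR or DESeq2 and 7 had an unadjusted edgeR p under 0.05, as did 656 of all 9971 tested genes. Of these 13, 10 were fitted below 0 and the median log2 fold change was -0.87. Complement genes of resident macrophages lay lower in depolarized libraries, although none was called. C1qa had 10, 12 and 11 counts in depolarized and 26, 18 and 24 in polarized cells (log2 fold change -1.10, standard error 0.52). C1qb had 62, 28 and 43 counts in depolarized and 71, 215 and 82 in polarized cells (log2 fold change -1.40, standard error 0.44). Axl, Spic and C1qc also lay lower in all depolarized libraries. Of the 13 tested markers, 5 lay lower and 2 higher without overlap, as did 4.54% and 4.59% of all tested genes. Adgre1 was fitted at 0.49, with overlapping groups. In CPM, Igf1, C1qb, C1qc, Axl and Spic were all highest in the polarized library of pair B, C1qa in that of pair A and Gatm in that of pair C. The part of macrophages in the values of Gatm and Igf1 was not tested.

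The 11 monocyte markers summed to between 1087 and 1214 CPM in depolarized and between 1120 and 1415 CPM in polarized libraries. By edgeR or DESeq2 0 of 7 were called. An unadjusted edgeR p under 0.05 was found for 5 of the 7, and for 656 of all 9971 tested genes. Of the 7, 3 were fitted below 0 and the median log2 fold change was 0.14. The genes fitted above 0 were Csf1r at 0.55, Ctss at 0.54, Cd14 at 0.42 and Mpeg1 at 0.14, and the others were Ly6c2 at -0.48, F13a1 at -1.41 and Ccr2. The chemokine receptor gene Ccr2 had 1, 0 and 9 counts in depolarized and 30, 25 and 22 in polarized cells (log2 fold change -3.22, standard error 0.80, edgeR adjusted p 0.139). The 12 neutrophil markers summed to between 171207 and 194363 CPM in depolarized and between 199240 and 246678 CPM in polarized libraries, without overlap. By edgeR 2 of the 12, the specific granule genes Camp and Ltf, were called lower, against 0.241% of all tested genes, and DESeq2 called 0. Of the 12, 10 were fitted below 0 and 5 had an unadjusted edgeR p under 0.05, as did 656 of all 9971 tested genes. Without overlap, 4 of the 12 lay lower and 1 lay higher in depolarized libraries, as did 4.54% and 4.59% of all tested genes. In the lists of basophils and mast cells, eosinophils, B and plasma cells, erythroid cells and stroma, 1, 7, 7, 6 and 1 genes were tested. By edgeR or DESeq2 0 were called. An unadjusted edgeR p under 0.05 was found for 0, 5, 2, 0 and 0 of them, and for 656 of all 9971 tested genes. Of the 7 eosinophil genes 4 were fitted below 0, with a median log2 fold change of -0.59. Of the 7 genes of B and plasma cells 6 were fitted below 0, with a median of -0.49. The part of monocyte and neutrophil stages in the values of the 6 genes was not tested.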

How the data were processed

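RNA from sorted cells was made into cDNA with a low-input SMARTer kit, per the labels' protocols. Per the submitters' processing notes STAR 2.0.4b and featureCounts 1.45 are named, beside Subread and bcl2fastq, with build GRCm38. The sources used here do not give the strand setting, the annotation release or the treatment of reads with several matches. The authors deposited, per library, raw whole-number counts per gene, CPM values (counts scaled to the library total) and RPKM values (CPM per kilobase of listed exon length). Groups were taken from the response label, and pairs A, B and C are the title codes 180206, 180214 and 180220, which the design text describes as biological replicate pairs. Deviations from group means correlated between the libraries of a pair at r = 0.08, 0.27 and 0.03 across genes in A, B and C, so the block rests on the design text.

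Counts were fitted in edgeR 4.0.16 (R 4.3.3) with filterByExpr by group, which left 9971 genes, TMM factors, the replicate block and a quasi-likelihood F test, with Benjamini-Hochberg adjustment over all genes tested. DESeq2 1.42.0 was an alternative. Fold changes are depolarized over polarized, and a standard error is approximate, namely the absolute log2 fold change over the root of F. Pair differences and profiles use log2 CPM with a prior count of 2. Symbols were matched for 40254 of 41388 genes. Exon overlaps were computed against GENCODE M21 (GRCm38), and promoters came from RefSeq. Intervals and the floor of 3 counts cover counting error only, as PCR copies were not told apart. P-values printed from this fit weigh the group difference against the spread of these libraries that is left after the replicate block.

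The members and lists were chosen with earlier results of these data known. The genes named beside the 6 were those fixed by name, up to 4 called genes with the lowest p and the 3 highest by mean RPKM of each related list, the 3 nearest profiles, and neighbours on the chromosome. Macrophage, monocyte, natural killer, N-glycan and family genes named outside this rule were chosen after their values were seen. The fit was tested on simulated data.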

Additional observations from a re-analysis of the deposited data

How the results depend on the processing

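Ms4a3, Nkg7, Gatm, Igf1 and Alg8 kept a fitted log2 fold change below 0 under every alternative that gave a value. The ranges over all alternatives were -5.32 to -4.07 for Ms4a3, -5.39 to -4.35 for Nkg7, -6.34 to -3.30 for Gatm, -2.23 to -1.88 for Igf1 and -5.41 to -4.26 for Alg8, which the stricter filter (at least 1 CPM in at least 3 libraries) removed. Prss57 ranged from -0.10 to 0.25. Of 71 such values 5 moved by more than the SD of the pair differences. For Nkg7 that SD depends on the prior count of 2 used for pair differences. Counts of calls depended on the fit. With all pairs and the replicate block edgeR called 24 genes lower and 8 higher. Without the replicate block it called 0 and 0, and 0 in the protease and precursor lists, against 3 and 5. With no scaling factors 6 and 0 were called, and with no filter 96 and 50, including 2 of the Ms4a family. DESeq2 with the replicate block called 16 higher. Leaving out 1 pair gave 36 to 518 genes lower and 9 to 500 higher, with the highest values without pair C. On leaving out 1 pair the genes called in either direction were 3 to 6 for proteases and 6 to 8 for precursors. They were 0 to 2 for the Ms4a family, 0 to 1 for insulin-like growth factor genes and 0 to 5 for N-glycan genes. The cause was not tested. Fits without a pair rest on fewer residual degrees of freedom. Depth limits Alg8, Gatm, Nkg7 and Ms4a3 in depolarized cells, where some libraries held 0 or 1 counts.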
